A study of Drosophila melanogaster with 33 samples.

Results

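The 8 genes described here are fly orthologues of human genes linked to neurodegeneration: TBPH, caz, Atx-1, Appl, tau, park, Pink1 and htt. They were taken as a fixed list of names out of 16727 genes in the count files. No cut on a measured value picked them, but the list was drawn up with earlier results of these data known. All 8 were found. After the filter on low counts, 7 of them were tested in brain (all but Atx-1), 7 in S2 cells (all but tau) and 6 in both.

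The study asked which mRNAs the RNA-binding protein Ataxin-2 (Atx2) meets in the fly brain and what happens to mRNA levels when Atx2 is reduced. Atx2 is itself the orthologue of a gene whose expanded glutamine repeat causes an ataxia. In flies its dose modifies the toxicity of TBPH and of the human protein that TBPH resembles, which links it to the genes described here. TBPH and caz are nuclear RNA-binding proteins, and the human orthologue of TBPH, TARDBP, is mutated in amyotrophic lateral sclerosis (ALS). Appl is a neuronal membrane protein related to the amyloid precursor protein, and tau binds microtubules in axons. Pink1 is a kinase that marks damaged mitochondria, and park is the ubiquitin ligase that acts after it. The htt gene encodes huntingtin, a large scaffold protein of vesicle transport, and Atx-1 is the orthologue of the ataxin-1 gene.

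RNA-seq counts came from 4 groups of 3 libraries. The brain groups were Gal4 control flies, labelled with elav-Gal4 as their genotype, and Atx2 RNAi flies with elav-Gal4, UAS-Atx2-RNAi and Tub-Gal80ts, a temperature-sensitive repressor of Gal4. The sources do not say outright whether the controls carried Tub-Gal80ts too. Flies were raised at 18 °C and moved as adults 1 day old to 29 °C for 5 days. The elav driver is active in neurons, while each library pooled 10 to 12 whole brains, glia and other cells included. S2 cells, a cultured fly line with features of blood cells (S2 in the labels, S2R+ in the methods of the study), were grown at 25 °C and transfected at an interval of 48 h with 5 µg of dsRNA against GFP (mock) or against Atx2. TRIBE, which marks the mRNAs that a protein meets by A-to-I editing, was run in brain with Atx2 fused to the catalytic domain of the editing enzyme ADAR, driven by the same elav-Gal4 and tub-Gal80ts for the same 5 days. It had 2 libraries for the wild-type protein (WT) and 2 for each of 5 altered forms: without the Lsm domain (∆Lsm), the LsmAD domain (∆LsmAD), the middle disordered region (∆mIDR) or the C-terminal disordered region (∆cIDR), and with only Lsm and LsmAD left. The study calls the brain RNA-seq replicates biological. Nothing says that replicates came from separate crosses or cultures, so p-values measure the spread between these libraries.

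Depth ranged from 11169973 to 16108727 counts per library. Replicate 1 of the Gal4 control stood apart: 34.6% of its reads were given to no gene, against 15.8% to 17.7% in the other 5 brain libraries. Brain values of the tested genes are therefore also given without it. The targeted gene checked the labels. Atx2 was at 349, 358 and 379 CPM (counts scaled to library size) in the 3 Gal4 control brains and at 237, 301 and 309 CPM in the 3 Atx2 RNAi brains. The groups did not overlap, but the log2 fold change of -0.34 ± 0.13 (SE) did not pass the test (edgeR quasi-likelihood test, adjusted p = 0.0611). It was -0.39 without Gal4 control replicate 1, -0.22 without Atx2 RNAi replicate 1 and -0.13 with library size alone, none of them past the threshold, and DESeq2 called it at -0.39 (adjusted p = 0.0179). In S2 cells the study reported reduced Atx2 protein on western blots after Atx2 dsRNA. Counts of Atx2 mRNA in S2 cells went against the label. They were at 192, 191 and 198 CPM in mock cells and at 839, 575 and 692 CPM in the libraries labelled Atx2 RNAi. The log2 fold change of the labelled libraries over mock was 1.88 ± 0.16 (adjusted p = 0.0019). Those libraries are called by their label throughout, no direction of Atx2 loss is drawn from them, and the cause of the rise was not tested.

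In control brain, Appl stood far above the other 7 genes. Levels between genes were compared as CPM per kb of exon, on a scale shared by all 12 libraries. Appl was at 607 ± 37.4 CPM per kb (mean ± SD, n = 3), which placed its CPM at the 99.8th percentile of the 9197 genes tested in brain. Next came caz at 66.1 ± 18.7, Pink1 at 54.5 ± 4.98, tau at 50.6 ± 4.13 and TBPH at 45.9 ± 5.84 CPM per kb, and each of these neighbours overlapped the next in its libraries. The htt gene followed at 17.5 ± 2.14 and park at 7.94 ± 0.523 CPM per kb, each clear of its neighbours. Atx-1 was last, with 3, 2 and 0 counts in the 3 libraries. The order depends on the length used for tau: per kb of its longest transcript tau was at 97.7 ± 7.97 CPM per kb and moved to the second place.

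S2 cells held the same genes in another order. In mock cells caz was first at 137 ± 2.36 CPM per kb, followed by Pink1 at 26.6 ± 1.65, TBPH at 19.8 ± 0.470, htt at 16.0 ± 0.476, park at 9.52 ± 0.310, Atx-1 at 1.03 ± 0.394 and Appl at 0.354 ± 0.0276. None of these neighbours overlapped. The neuronal genes Appl and tau were nearly silent. Appl had 36, 32 and 42 counts in mock cells, and tau had 2, 0 and 1, while all 3 libraries labelled Atx2 RNAi had 0 counts of tau. A count of 0 over those 3 libraries allows up to 3 counts, or 0.0703 CPM. The intervals and floors given here cover counting error only.

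**Figure D1:**
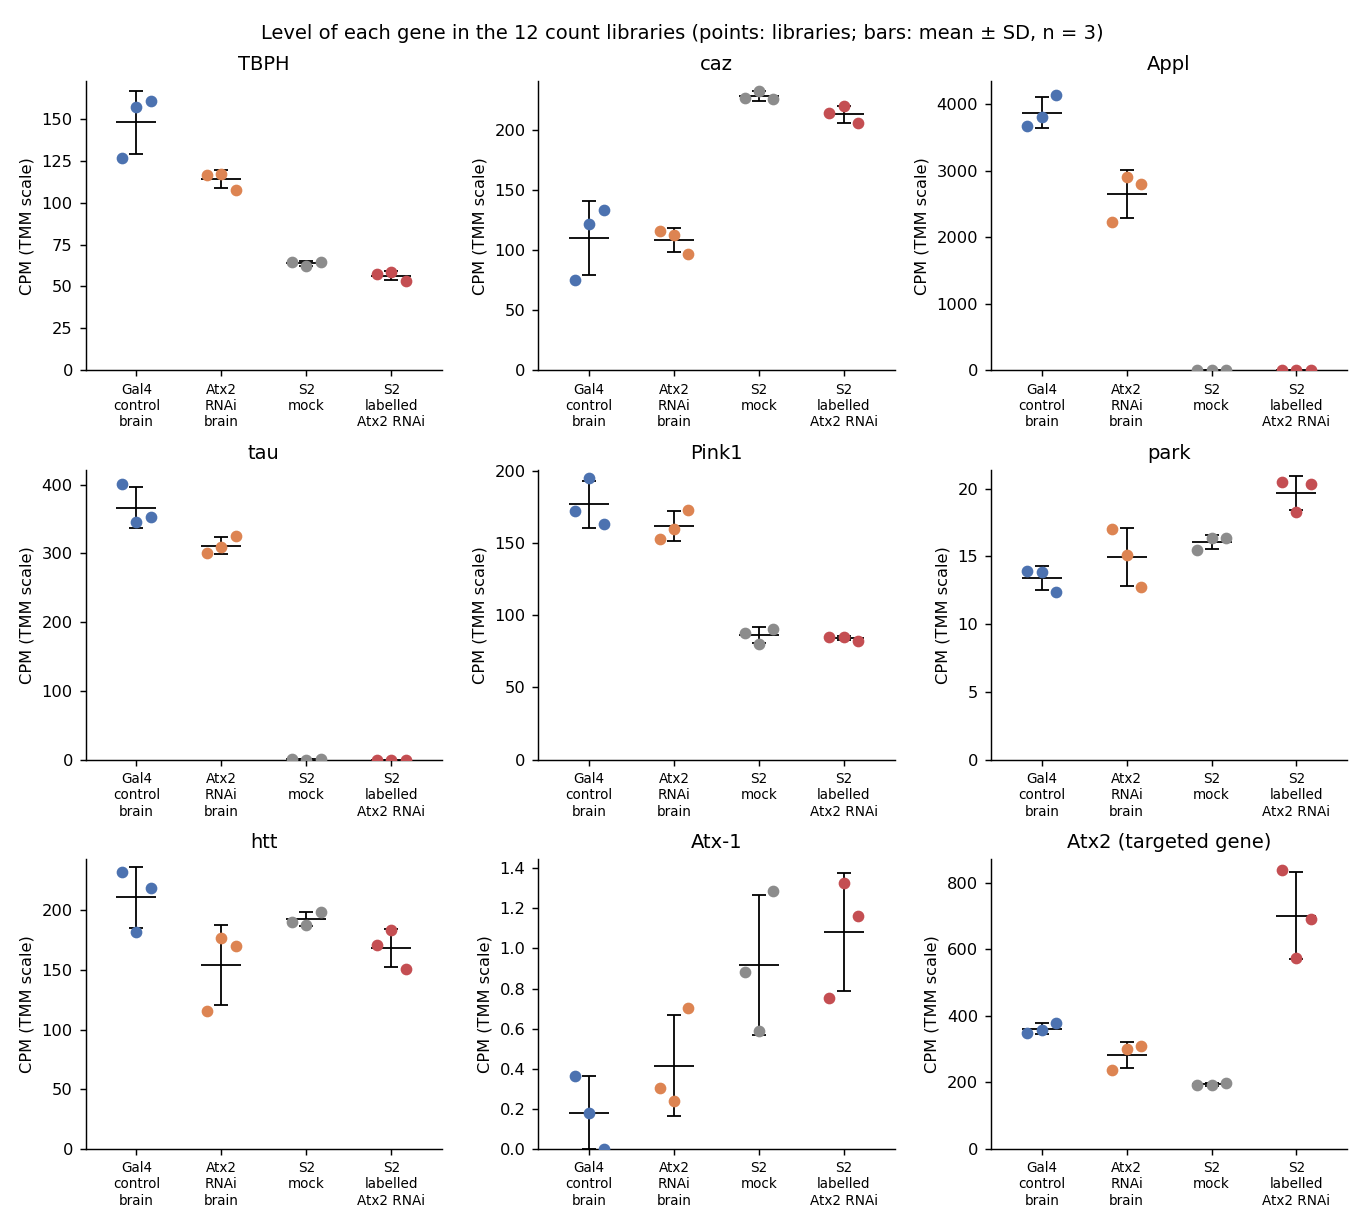
CPM of each of the 8 genes and of Atx2 in the 12 count libraries, with 1 point per library and the mean ± SD of each group (n = 3), on linear axes that start at 0 and differ between panels. Appl and tau were near 0 in S2 cells, Atx-1 stayed under 2 CPM in every library, and Atx2 was higher in the S2 libraries labelled Atx2 RNAi than in mock cells.

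Between control brain and mock S2 cells, 4 of the 8 genes were higher in brain and 3 were lower. These calls are common in this contrast: 46.5% of 9771 tested genes were higher and 42.8% lower at an adjusted p under 0.05, and source and library run cannot be told apart. Appl was higher in brain by 10.74 ± 0.18 on the log2 scale (adjusted p = 8.7e-15). For tau the summed counts were 10990 in control brain and 3 in mock cells, a ratio of 5906 (95% exact interval of counting error 2020 to 28641). TBPH was higher in brain by 1.22 ± 0.09 and Pink1 by 1.04 ± 0.08 on the log2 scale, and caz differed the other way by -1.05 ± 0.16. With library size alone these values were 0.62, 0.44 and -1.64, still past the threshold. Atx-1 rested on 5 counts in brain and 46 in mock cells, a ratio of 0.175 (0.0543 to 0.439). For park and htt the difference depended on the scaling. For park it was -0.26 ± 0.11 (adjusted p = 0.0418). The call was lost without Gal4 control replicate 3 (adjusted p = 0.121) and without mock replicate 2 or 3 (adjusted p = 0.0845 and 0.0813) and with a filter of CPM above 1 (adjusted p = 0.0505). It was -0.60 with upper-quartile scaling (adjusted p = 0.00033), -0.86 with library size alone (adjusted p = 2.1e-05) and 0.01 with DESeq2 (adjusted p = 0.977). For htt it was 0.13 ± 0.14 (adjusted p = 0.391), with a sign that followed the scaling: -0.47 with library size alone and 0.40 with DESeq2. The same scalings moved the median of all genes from 0.11 to -0.48 and 0.84.

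In brain with Atx2 RNAi, Appl and TBPH were lower and no gene of the 8 was higher. That is 2 of 7 tested genes lower, where 18.6% of the 9197 genes tested were lower and 23.3% higher, so the share of calls was near the background. On the TMM scale, in 4 of the 7 every RNAi library lay below every control, as in 26.6% of tested genes, and in 0 of the 7 above, as in 31.0%. The 7 genes had a median log2 fold change of -0.21, against 0.06 over all genes tested. In these pooled brains, fewer cells of a type and less RNA per cell cannot be told apart.

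TBPH (FBgn0025790, chromosome 2R, 23859067 to 23862593, minus strand) was at 126, 157 and 161 CPM in the control brains and at 117, 117 and 108 CPM in the Atx2 RNAi brains. On the TMM scale every RNAi library lay below every control library, and the lowest control was replicate 1. Before scaling, that control had 1043 TBPH counts of 11169973 in all. The RNAi libraries had 1543 of 13970745, 1483 of 14223769 and 1377 of 14324466, so the separation rests on the TMM scaling. The log2 fold change was -0.36 ± 0.12, with a 95% interval of -0.63 to -0.09 (adjusted p = 0.0392). This call was a narrow one. It was kept without Gal4 control replicate 1 (-0.48, adjusted p = 0.0042) and lost on leaving out any of the other 5 libraries, with values from -0.37 to -0.30 and adjusted p from 0.0846 to 0.132. It was also lost with library size alone (-0.15, adjusted p = 0.371), with upper-quartile scaling (-0.29, adjusted p = 0.0753), without a filter (-0.36, adjusted p = 0.0603) and with the replicate block (-0.35, adjusted p = 0.0799), and kept with DESeq2 (-0.41, adjusted p = 0.0104). The sign was negative in all 12 alternatives.

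The second RNA-binding protein, caz, showed no difference that passed the test, and its response was not tested against that of TBPH. The gene (FBgn0285954, chromosome X, 16288810 to 16293520, plus strand) was at 74.9, 122 and 134 CPM in the controls and 116, 112 and 97.1 CPM with RNAi. The low control was replicate 1, and the RNAi libraries fell inside the control range. The log2 fold change was 0.00 ± 0.21, with an interval of -0.49 to 0.48 (adjusted p = 0.994). Without Gal4 control replicate 1 it was -0.24 (adjusted p = 0.0979), so the value rests on that library, while no alternative called the gene. Its sign turned in 6 of 12 alternatives.

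Appl had the largest difference of the 7. It spans 48544 bases (FBgn0000108, chromosome X, 530501 to 579044, plus strand). It was at 3676, 3800.1 and 4138 CPM in the controls and at 2230.05, 2902 and 2803 CPM with RNAi, with no overlap between the groups. The log2 fold change was -0.53 ± 0.14, with an interval of -0.85 to -0.21 (adjusted p = 0.0174). The call was lost without Gal4 control replicate 3 (-0.48, adjusted p = 0.0574) and with library size alone (-0.32, adjusted p = 0.0611), and kept in the other 10 alternatives, from -0.59, without Gal4 control replicate 1, to -0.42.

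For tau (FBgn0266579, chromosome 3R, 27639886 to 27656996, minus strand) the controls were at 401, 346 and 353 CPM and RNAi brains at 300.2, 308 and 325 CPM. The groups did not overlap on the TMM scale, and the log2 fold change of -0.21 ± 0.10 did not pass the test (adjusted p = 0.126). For htt (FBgn0027655, chromosome 3R, 28696242 to 28734816, plus strand) the controls were at 232, 182 and 219 CPM and RNAi brains at 115.5, 177 and 169.9 CPM. The highest RNAi library was just under the lowest control, and the log2 fold change of -0.43 ± 0.17 did not pass (adjusted p = 0.0714). Without Gal4 control replicate 1 the values were -0.17 for tau and -0.38 for htt, and without Atx2 RNAi replicate 1 htt was at -0.26, none past the threshold. Of the 12 alternatives only DESeq2 called either gene, at -0.26 for tau (adjusted p = 0.0327) and -0.48 for htt (adjusted p = 0.0357). With library size alone tau was at -0.00 (adjusted p = 0.981) and htt at -0.22 (adjusted p = 0.234).

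The mitochondrial pair showed no difference that passed the test. Pink1 (FBgn0029891, chromosome X, 6683798 to 6687302, plus strand) was at 172, 195 and 163 CPM in the controls and 153, 159.6 and 173 CPM with RNAi. The groups overlapped, and the log2 fold change was -0.11 ± 0.11, with an interval of -0.36 to 0.15, and its sign turned to 0.10 with library size alone. The park gene (FBgn0041100, chromosome 3L, 21194754 to 21196853, minus strand) was at 13.9, 13.9 and 12.4 CPM in the controls and 16.99, 15.1 and 12.7 CPM with RNAi, a log2 fold change of 0.18 ± 0.15 with an interval of -0.16 to 0.52. Without Gal4 control replicate 1 the values were -0.15 for Pink1 and 0.18 for park, and park ranged from 0.08 without Atx2 RNAi replicate 1 to 0.28 without Atx2 RNAi replicate 3. Over 1076 bases park shares its exons with an antisense RNA and Pink1 shares 340 bases with CG44303 on the other strand, and the counts were made by strand. Atx-1 (FBgn0029907, chromosome X, 6823204 to 6824203, plus strand) had 4, 3 and 9 counts in the RNAi brains and was not tested.

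**Figure D2:**
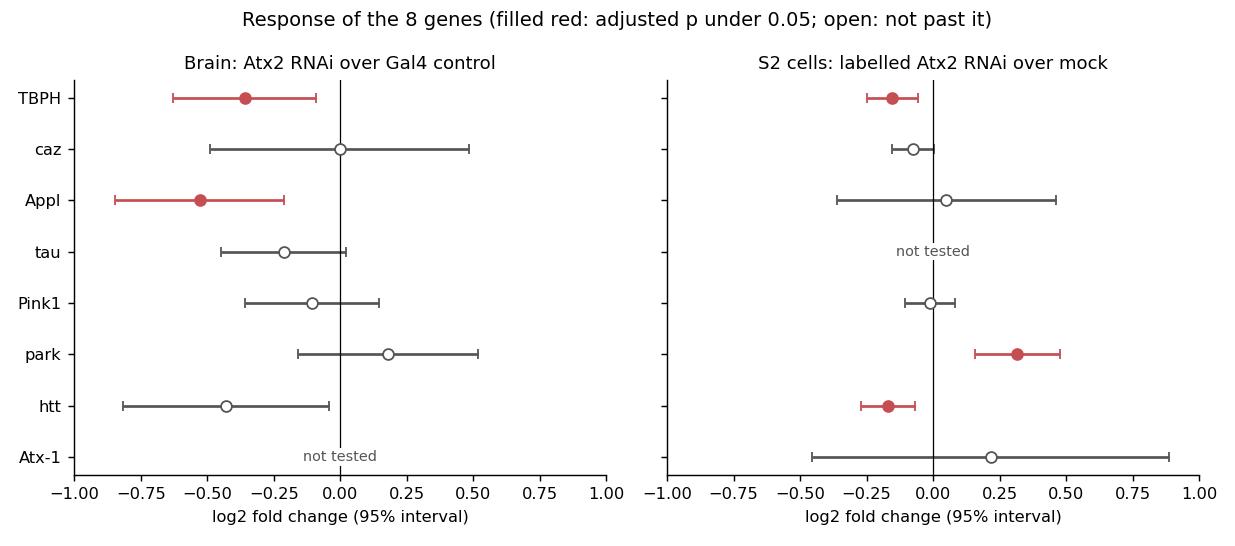
Log2 fold change with its 95% interval for each of the 8 genes in brain (Atx2 RNAi over Gal4 control) and in S2 cells (labelled Atx2 RNAi over mock), 3 libraries a group. Filled red points passed an adjusted p of 0.05: Appl and TBPH in brain, TBPH, htt and park in S2 cells.

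**Figure D3:**
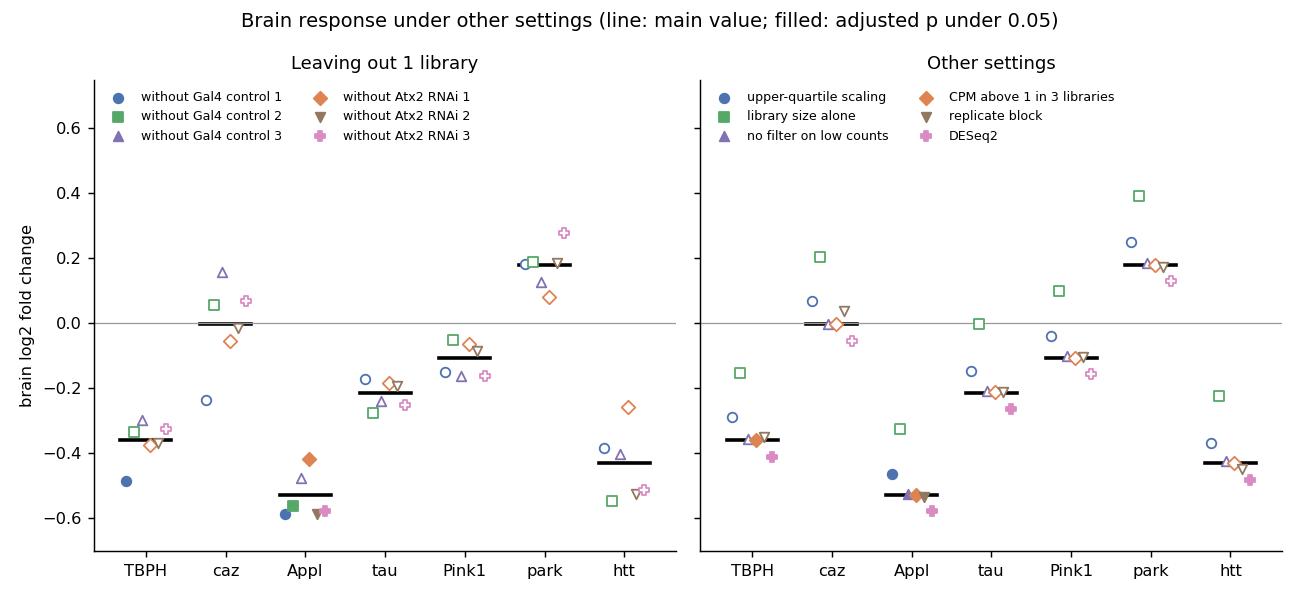
Brain log2 fold change of the 7 tested genes when 1 library is left out (left) and under other scalings, filters, the replicate block and DESeq2 (right). Lines give the main value and filled marks an adjusted p under 0.05. Appl stayed filled in all but 2 settings, while TBPH was filled in 3 of 12.

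Most neuronal markers fell, the direction of Appl and TBPH. Of 11 neuron markers fixed as a list, 8 fell, such as the synaptic genes brp and nSyb, and 0 rose. Over all genes tested in brain, 18.6% fell and 23.3% rose. The markers elav, fne and Syn did not pass, with log2 fold changes of -0.22, -0.06 and -0.34. The median log2 fold change of the 11 markers was -0.68. Their summed level was 22154 to 26743 CPM in control brains and 14500.2 to 17037 CPM with RNAi. Set against the summed counts of these markers, Appl had 138 to 172 counts per 1000 marker counts in controls and 154 to 170.3 with RNAi, so the groups overlapped. TBPH had 4.75 to 7.09 and 6.48 to 8.04 and htt 8.18 to 8.71 and 7.96 to 10.4, also overlapping. The others were higher with RNAi without overlap: tau had 13.2 to 15.6 and 18.1 to 20.7, caz 2.81 to 5.49 and 5.85 to 8.03, Pink1 6.10 to 8.78 and 9.37 to 10.52, and park 0.463 to 0.626 and 0.767 to 1.17. The targeted gene Atx2 did the same, with 13.1 to 16.2 and 16.4 to 18.6. Atx-1 rested on 9 counts or fewer a library. Because the marker sum itself fell, a gene at an unchanged CPM is higher in this ratio. The share of all genes that are higher in it was not computed. The ratio was chosen after the values were seen and was given no test.

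Other cell types shifted as well, where 18.6% of all genes tested in brain fell and 23.3% rose. Of 8 glia markers 5 fell and 1 rose, with summed levels of 7928 to 8982 CPM in controls and 5292 to 6282 CPM with RNAi. All 6 muscle markers fell, from a sum of 362 to 473 CPM to a sum of 103 to 140.4 CPM. Of 8 fat body markers 6 rose, among them the yolk protein gene Yp1, and 2 fell, while their sum went from between 572 and 1649.96 CPM to between 11816 and 27248 CPM. Of 7 hemocyte markers 4 rose and of 9 photoreceptor markers 5 rose, with sums of 898 to 2254 against 1551 to 1963 CPM and of 1250.04 to 1279.7 against 1571 to 2091 CPM. Without Gal4 control replicate 1, 3 fat body markers rose rather than 6, 5 of 6 muscle markers fell, and 3 hemocyte markers fell where 0 had fallen. No marker of these lists was at 0 over a brain group. In S2 cells the hemocyte markers summed to 706 to 793 CPM and the neuron markers to 65.2 to 69.9 CPM. The part of these shifts in the values of the 8 genes was not tested.

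In the S2 libraries labelled Atx2 RNAi, TBPH and htt were lower and park was higher, 3 of 7 tested genes, where 14.6% of the 7567 genes tested were lower and 14.5% higher. The 7 genes had a median log2 fold change of -0.01, and all tested genes one of 0.01.

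TBPH was at 64.7, 62.0 and 64.5 CPM in mock cells and at 57.5, 58.4 and 53.3 CPM in the labelled libraries, without overlap. Its log2 fold change was -0.15 ± 0.05 (adjusted p = 0.0175). The call was lost without mock replicate 1 (-0.14, adjusted p = 0.0779), without mock replicate 3 (-0.15, adjusted p = 0.0516), without replicate 3 of the labelled libraries (-0.12, adjusted p = 0.067), with upper-quartile scaling (-0.12, adjusted p = 0.0529) and with DESeq2 (-0.16, adjusted p = 0.0791). For htt the values were 191, 188 and 199 CPM against 171, 183 and 151 CPM, a log2 fold change of -0.17 ± 0.05 (adjusted p = 0.0127), lost without mock replicate 3 (-0.15, adjusted p = 0.0679). Among the leave-one-out fits the htt value ranged from -0.23 to -0.10, the last without replicate 3 of the labelled libraries.

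The park gene was at 15.5, 16.4 and 16.3 CPM in mock cells and rose to 20.5, 18.2 and 20.3 CPM. Its log2 fold change of 0.32 ± 0.08 (adjusted p = 0.0047) passed in all 12 alternatives, from 0.29 to 0.37. It rests on 228 to 305 counts a library. For caz, at 227, 233 and 226 CPM against 214, 219.8 and 206 CPM, the groups did not overlap either, as in 25.5% of tested genes in this direction (and 18.6% in the other), yet the log2 fold change of -0.08 ± 0.04 did not pass (adjusted p = 0.131). Pink1 was at 87.5, 80.2 and 90.6 CPM against 85.1, 85.1 and 82.2 CPM, a difference of -0.01 with an interval of -0.11 to 0.08. Appl, at 1.85 to 2.61 CPM, and Atx-1, at 0.587 to 1.33 CPM over the 6 libraries, overlapped between groups. Their intervals were wide, from -0.36 to 0.46 for Appl and from -0.46 to 0.89 for Atx-1.

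Whether the response differed between brain and S2 cells was tested in a joint fit of all 12 libraries. At an adjusted p under 0.05, 0 of the 6 genes tested in both sources differed, where 8.76% of 9771 genes had a lower and 16.6% a higher response in brain. At an unadjusted p under 0.05, where 14.0% of genes were lower, there was 1, Appl, whose brain response was lower by -0.58 ± 0.22 on the log2 scale (adjusted p = 0.0758), and DESeq2 called the same gene (-0.69, adjusted p = 0.0367). Appl was also called without replicate 1 of the labelled S2 libraries (-0.71, adjusted p = 0.0491). For TBPH the difference was -0.20 ± 0.13 with an interval of -0.48 to 0.07, without Gal4 control replicate 1 it was -0.30 (adjusted p = 0.0169), and with library size alone it was -0.01. For htt it was -0.26 ± 0.20, for park -0.13 ± 0.16, for Pink1 -0.09 ± 0.12 and for caz 0.08 ± 0.22, each with an interval that held 0. Without Atx2 RNAi replicate 1 the htt difference was -0.08, and with library size alone it was -0.07.

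Genes that work with these 8 were followed through 5 lists, chosen with earlier results of these data known. The count of each list stands beside the shares over all genes tested. In brain 18.6% fell and 23.3% rose, and in S2 cells 14.6% fell and 14.5% rose. Among 7 targets and interactors of TBPH and caz, 3 fell and 1 rose in brain, with a list median of -0.42. Gad1, which makes the transmitter GABA, fell from 3480.4 ± 289 to 1349 ± 105 CPM (log2 fold change -1.34 ± 0.13, adjusted p = 0.00031). The microtubule-associated gene futsch, an mRNA that TBPH binds in flies, fell by 0.99 ± 0.28 on the log2 scale (adjusted p = 0.0244), and without Gal4 control replicate 1 or 3 its call was lost, so that 2 genes of the list fell without replicate 1. Xrp1, a transcription factor gene that is raised in caz mutant flies, rose by 0.40 ± 0.12 (adjusted p = 0.0237), a call lost on leaving out any of 3 libraries, Gal4 control replicate 3 and Atx2 RNAi replicates 1 and 3. The replicate block lost the Xrp1 call too. In S2 cells 1 of 6 tested genes, Map205, fell, by 0.13 ± 0.04, a call lost without mock replicate 2 or 3 and with upper-quartile scaling.

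Of 16 further ALS and frontotemporal dementia orthologues, 2 rose, 1 fell and 13 did not pass in brain. Both shares were below those of all genes tested, 23.3% higher and 18.6% lower. The list median of 0.01 became -0.02 without Gal4 control replicate 1. The superoxide dismutase gene Sod1 rose from 192 ± 10.8 to 309.98 ± 27.5 CPM (log2 fold change 0.72 ± 0.11, adjusted p = 0.0024), and the profilin gene chic rose by 0.50 ± 0.12. The autophagy receptor gene ref(2)P fell by 0.33 ± 0.10, a call lost without Gal4 control replicate 2 and without any of the 3 Atx2 RNAi replicates. Upper-quartile scaling, library size alone, no filter and the replicate block lost the ref(2)P call as well. In S2 cells Sod1 also rose, by 0.25 ± 0.04, and Hrb27C and Hrb98DE, RNA-binding proteins of the hnRNP family, fell by 0.24 ± 0.04 and 0.20 ± 0.04. There 4 of 16 genes fell and 1 rose.

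Of 14 tested genes of Appl processing and tau phosphorylation, 5 fell and 0 rose in brain, with a median of -0.18. Over all genes tested there, 18.6% fell and 23.3% rose. The tau kinase sgg fell by 0.55 ± 0.12 (adjusted p = 0.0089). The others that fell were the Appl-binding adaptors X11Lbeta and X11L, the kinase activator Cdk5alpha and the protease Ide. The components of the gamma-secretase complex did not pass, with Psn at 0.15, nct at 0.00, aph-1 at 0.02 and pen-2 at 0.00. X11Lbeta, at -0.50 ± 0.15, lost its call without Gal4 control replicate 3, without Atx2 RNAi replicate 1 or 3, and with library size alone. In S2 cells 1 of 12 genes, X11L, fell, by 0.14 ± 0.04, a call lost without mock replicate 1 or 2 or replicate 3 of the labelled libraries. Upper-quartile scaling and DESeq2 lost it as well.

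Of 21 tested genes of Parkinson disease and mitophagy, 4 fell and 1 rose in brain, with a median of 0.04. The share that fell was near the 18.6% of all genes, and the share that rose was under their 23.3%. Without Gal4 control replicate 1, 6 fell and 2 rose and the median was -0.05. DJ-1alpha, a redox-sensing protein gene, rose from 7.97 ± 0.696 to 22.7 ± 3.08 CPM (log2 fold change 1.53 ± 0.15, adjusted p = 0.00035), and its paralogue DJ-1beta had a log2 fold change of 0.37 in brain (adjusted p = 0.199) and rose by 0.24 ± 0.05 in S2 cells. Synj and aux, the orthologues of synaptojanin and auxilin, which uncoat synaptic vesicles, fell in brain by 0.72 ± 0.13 and 0.60 ± 0.11, and aux fell in S2 cells by 0.15 ± 0.04. The retromer gene Vps35 fell in S2 cells by 0.19 ± 0.04 and had a log2 fold change of -0.02 in brain. Chchd2, a mitochondrial protein gene, rose in S2 cells by 0.14 ± 0.05, a call that only 2 of 6 fits with a library left out kept, those without mock replicate 1 and without replicate 2 of the labelled libraries. DESeq2 did not call Chchd2 there. In S2 cells 3 of 19 genes fell and 2 rose.

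Of 14 tested polyglutamine disease genes and partners, 5 fell and 0 rose in brain, where 18.6% of all genes fell and 23.3% rose. The list median was -0.36, and 4 genes fell without Gal4 control replicate 1. The splicing factor gene Rbfox1 fell from 1151 ± 87.1 to 764 ± 27.5 CPM (log2 fold change -0.57 ± 0.11, adjusted p = 0.0049). The palmitoyltransferase Hip14, whose mammalian orthologue modifies huntingtin, fell by 0.48 ± 0.09, and Hip1, milt and Atro fell as well, with log2 fold changes of -0.47, -0.38 and -0.40. In S2 cells milt, a mitochondrial transport adaptor, fell by 0.17 ± 0.04 and cic, a repressor that binds Atx-1, fell by 0.14 ± 0.05. Without replicate 1 or 3 of the mock libraries, or replicate 3 of the labelled ones, the cic call was lost. Upper-quartile scaling, library size alone, the replicate block and DESeq2 lost the cic call too. In S2 cells 3 of 14 genes fell, and Atx2 alone rose.

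**Figure D4:**
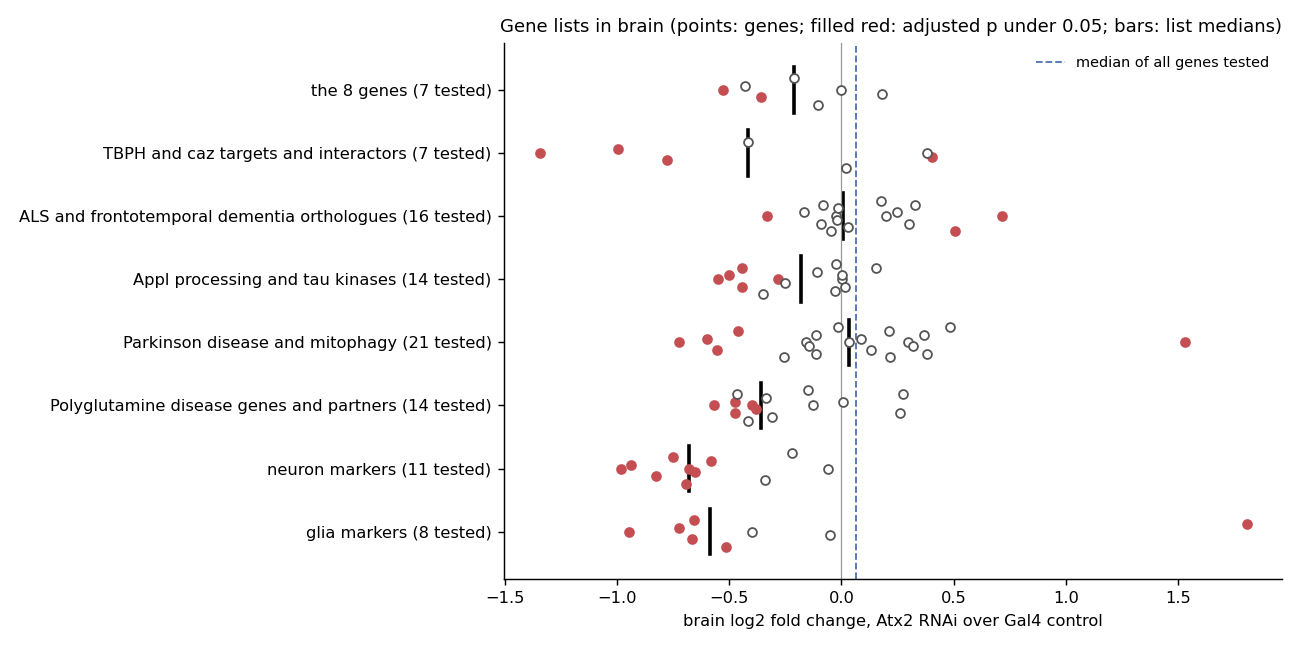
Brain log2 fold change of each tested gene of the 8, of the 5 related lists and of the neuron and glia markers. Bars are list medians, the dashed line is the median of all 9197 genes tested (0.06), and filled points passed an adjusted p of 0.05. The neuron marker median of -0.68 is lower than the median of -0.21 of the 7 genes.

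Genes with a pattern close to each of the 6 genes tested in both sources were found among 7019 genes, by the root mean square difference in log2 CPM over the 12 libraries after centring within brain and within S2 cells. TBPH was nearest to Vha100-1 (0.0569) and CG31064 (0.0587), and caz to cindr (0.0557) and beag (0.0607). Appl was nearest to dnr1 (0.0934) and Mgat2 (0.0943), park to CG3209 (0.0643) and Roc2 (0.0676), and Pink1 to CG9977 (0.0454) and SIDL (0.0460). The closest match of all was between htt and osa (0.0327), then scrib (0.0403). These likenesses describe 12 libraries only.

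No site common to both libraries of a form was listed in any of the 8 genes, for any of the 6 forms of Atx2. A listed position had at least 20 reads and 15% edited, and a common site was one listed in both libraries. For WT Atx2, 312 common positions lay in 256 genes, of which 247 were tested in brain, 2.69% of the genes tested there. The other forms gave 4.13% for ∆Lsm, 1.85% for ∆LsmAD, 1.72% for ∆mIDR, 0.424% for ∆cIDR and 0.370% for Lsm and LsmAD alone. Counting a site in either library gave 5.35% for WT, 10.7% for ∆Lsm, 5.48% for ∆LsmAD, 4.93% for ∆mIDR, 1.40% for ∆cIDR and 1.23% for Lsm and LsmAD alone, and 14.8% of genes had a position in any of the 12 lists. With so few genes edited, 0 of 8 is near the background. Form and library kit cannot be told apart between WT, sequenced without strand, and the altered forms, sequenced with it.

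A single entry fell in the 8 genes. Pink1 had an edit of 17.2% at position 6686254 of chromosome X (dm6), in its coding sequence, in replicate 1 of ∆Lsm only. No other listed position lay within the span of any of the 8 genes, on either strand. The read number at a position is not in the lists, so this percent has no interval, and a position absent from a list may have had fewer than 20 reads or a percent under 15.

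Edited genes were not limited to levels above those of the 8 genes. The 247 tested genes with a common WT site had a median of 193 CPM in control brain, and 105 of them were under the level of TBPH. With the tested genes cut into 10 bins of rising CPM, Appl and tau were in the highest bin, of which 9.89% had a common WT site and 14.3% a common ∆Lsm site. Pink1 and htt were in bin 9 (5.33% and 7.93%), TBPH and caz in bin 8 (3.59% and 6.86%) and park in bin 4 (0.870% for both). The longest annotated 3′UTR of Appl, 3466 bases, was at the 97.6th percentile of tested genes, and that of park, 93 bases, at the 14.8th.

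**Figure D5:**
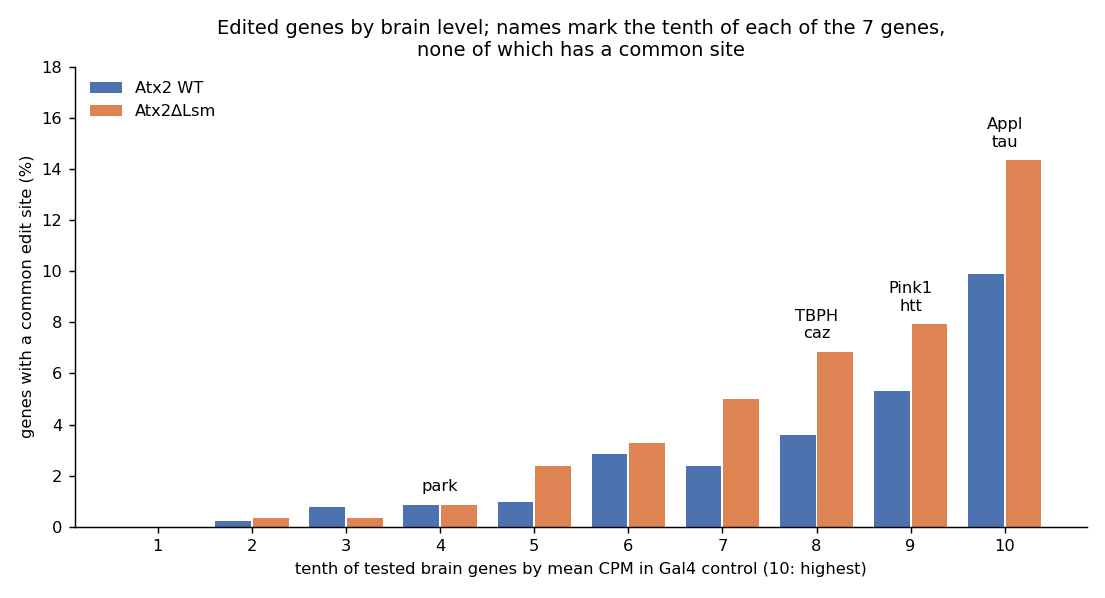
Share of genes tested in brain with a common edit site, for Atx2 WT and ∆Lsm, by 10 bins of mean CPM in Gal4 control brain, with the 7 tested genes named over their bin. The share reaches 9.89% and 14.3% in the highest bin, which holds Appl and tau, and none of the 7 genes has a common site.

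Edits did occur in a few genes of the related lists. For WT, common sites lay in 1 of 16 ALS and frontotemporal dementia genes, 1 of 22 Parkinson disease genes and none of the other lists. Over genes tested in brain the WT share was 2.69%. For ∆Lsm, where that share was 4.13%, the same 2 lists had 2 of 16 and 1 of 22. The TBPH and caz list had 1 of 7, and the Appl and polyglutamine lists had 1 of 15 each. That gene of the polyglutamine list was Atx2 itself, which the fusion transgene also carries. No test was run on these counts. Hrb98DE carried a common site on chromosome 3R at 28604877, edited at 25.3% and 28.1% in WT, 37.6% and 34.9% in ∆Lsm and 16.1% and 29% in ∆LsmAD. Miro, a mitochondrial transport GTPase that Pink1 and park act on, had a common site at 24035638 of chromosome 3R, edited at 21.3% and 18.2% in WT and 28.5% and 21.9% in ∆Lsm. Psn, the catalytic subunit of gamma-secretase, was edited at 24.4% and 28.6% in ∆Lsm on chromosome 3L at 20434934, and listed in replicate 1 alone for WT (16.3%) and ∆mIDR (17.1%). Gad1 was edited at 20.1% and 18% in ∆Lsm on chromosome 3L at 4075146. Vap33, the orthologue of an ALS gene, named Vap-33A in the lists, was edited at 20.8% and 18.8% in ∆Lsm on chromosome X at 3954402, and listed in 1 library alone for WT (22.7%), ∆LsmAD (17%) and ∆mIDR (18.2%). Rbfox1, named A2bp1 in the lists, had common sites in ∆LsmAD, ∆mIDR and the Lsm and LsmAD form and none in WT. At 28604752 Hrb98DE had another common site, in ∆mIDR (23.975% and 17.2%). Its site at 28604877 was listed in replicate 1 alone of ∆mIDR (26.4%). Miro and Rbfox1 also had entries in 1 library alone of other forms. Atx2 itself was edited in its coding sequence on chromosome 3R, at 15414614 in ∆Lsm (15.7% and 15.8%) and at 15412911 with Lsm and LsmAD alone (34.0% and 27.3%). Reads of the fusion transgene and of the endogenous gene are not separated in the lists.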

How the data were processed

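For RNA-seq, the authors aligned reads to dm6 with STAR and used HTSeq in its reverse-strand mode, and the deposited counts are raw. The annotation they used is not given in the sources used here. For TRIBE, TopHat2 alignments to dm6 were compared with control brains, and the lists deposited by the authors give the percent edited at positions with at least 20 reads and 15% edited. Reads that HTSeq gave to no gene, 13.5% to 34.6% per library, stayed out of the library sizes. Of 33 samples, 24 were used here, and the other 9 were not analysed here. Groups were taken from the submitters' labels.

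The test was the quasi-likelihood test of edgeR 4.0.16, run under R 4.3.3 (TMM, filterByExpr with a minimum of 10 counts, robust fits, two-sided tests, Benjamini-Hochberg adjustment over all genes tested, threshold 0.05), in brain and S2 cells separately and jointly for differences between them. Intervals are 95% intervals of the fit, and an exact interval is binomial. Levels are CPM on the joint TMM scale, and log2 CPM took a prior of 0.5. All 12 replicate pairs differed by more than sampling noise. Depth, at 11169973 to 16108727 counts, leaves genes under 10 counts without a test. The fits were tested on simulated counts with known changes. With 3 libraries against 3, an exact permutation test was not used because it cannot pass 0.05.

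Alternatives were DESeq2 1.42.0, scaling by upper quartile or by library size only, other filters, the replicate number as a block, each library left out, and other edit thresholds. The genes, lists and alternatives were chosen with earlier results of these data known. From each list, the text names the members with the largest brain or S2 change among those past the threshold without overlap, up to 2 in each direction, and others named were chosen after their values were seen. Of the listed genes, Appl-bp1 and hap40 were not matched to the files. Gene positions and lengths come from Ensembl on dm6 coordinates, which matched 98.7% of symbols, with Python 3.11.15, pandas 2.3.3, scipy 1.17.1 and matplotlib 3.10.9.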

Additional observations from a re-analysis of the deposited data

Results flagged for a closer look

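The response of the targeted gene differed between brain and S2 cells in the joint fit of 12 libraries. Atx2 was lower in Atx2 RNAi brains by a log2 fold change of -0.34 ± 0.13 and higher in the S2 libraries labelled Atx2 RNAi by 1.88 ± 0.16. The brain response minus the S2 response was -2.22 ± 0.18 on the log2 scale (95% interval -2.62 to -1.82), past the threshold after adjustment over 9771 genes. On the TMM scale, 3 of 3 RNAi libraries in brain were below every control and 3 of 3 labelled libraries in S2 cells were above every mock library. The cause was not tested.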

How the results depend on the processing

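With 2 genes of the 8 lower in brain, the count was 1 with upper-quartile scaling, 0 with library size alone, 1 without a filter on low counts, 1 with the replicate block and 4 with DESeq2, and 0 to 2 on leaving out a library. Over all genes, 1713 fell and 2143 rose (55.6% of calls higher); library size alone gave 925 lower calls and 77.3% higher, and leaving out a library gave 1151 to 1822 and 1389 to 2193. The median log2 fold change of all genes moved from 0.06 to 0.27 with library size alone. In S2 cells, 2 genes of the 8 were lower, 1 with upper-quartile scaling or DESeq2, and 0 to 2 on leaving out a library. Calls higher over all S2 genes went from 1094 to 613 with DESeq2, and 49.8% of calls were higher, against 65.0% with upper-quartile scaling. For the brain response minus the S2 response, 856 lower calls became 440 with library size alone, 549 with the replicate block and 1465 with DESeq2, and 1623 higher calls became 2527 with library size alone; 0 members were lower, 1 with DESeq2, and 0 to 1 on leaving out a library. Between control brain and mock S2 levels the sign turned for htt, to -0.47 with library size alone, and for park, to 0.0051 with DESeq2. With a site in either library of ∆Lsm counted, 1 member and 1 site were found, and on leaving out a library 0 to 1. The cause of these changes was not tested. Same-numbered libraries did not deviate together (correlations of -0.20 to 0.06), so the numbers were not taken as pairs. The block took the TBPH call in brain (adjusted p = 0.0799). Counts limit Atx-1 in brain and tau in S2 cells, and the lists limit edits to positions with 20 reads.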
